A study of Mus musculus with 6 samples.

Results

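The Schlafen genes of the mouse, Slfn1, Slfn2, Slfn3, Slfn4, Slfn5, Slfn8 and Slfn9, were followed across CD8+ T cells that were resting or had been activated with one of a pair of cytokines. These 7 genes, of 19938 genes named on the arrays, were chosen by gene name with earlier results of these data known. For a gene with several probe sets the rule took the brightest on average, but every member had 1, so no measured value decided which one was read, and 0 probe sets carried a Schlafen symbol beside another. All cells came from spleens of female C57BL/6 mice carrying the Pmel-1 T cell receptor transgene, which gives their CD8+ T cells a single specificity, for a peptide of the melanocyte and melanoma protein gp100. Naive cells were sorted fresh as CD8+ Thy1.1+ cells. IL-2 cells and IL-12 cells received gp100 for 4 days and the named cytokine for 6 days, and no sort of them is described. Each group held 2 arrays, no ages are given, and no label ties the paired arrays to different animals or cultures, so p-values may measure technical spread only. The study set IL-12 beside IL-2 priming to look for genes needed for activity against tumours.

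Schlafen proteins take their name from the German word for sleeping, because the first members were described as restraining thymocyte and T cell growth. The family divides into short proteins (Slfn1, Slfn2), intermediate ones (Slfn3, Slfn4) and long ones with a helicase-like end (Slfn5, Slfn8, Slfn9). Several members are induced by type I interferon. Slfn2 is the member most closely tied to quiescence, since mice with a defective Slfn2 have T cells that fail to stay at rest and die on activation.

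Values are log2 RMA values, in which a difference of 1 is a doubling of the signal, and levels of different genes are not compared because probe sets differ in brightness. Over the 11147 genes tested, the arrays of a group correlated at 0.986 (naive), 0.994 (IL-2) and 0.992 (IL-12), computed across genes and given as a description. The label of CD8+ T cells fitted its defining markers: the group means of Cd8a, Cd8b1, Cd3e and Cd3g lay between 12.14 and 13.27. Y-linked genes, which these female cells lack, had group means from 3.32 to 4.96.

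In activated cells Slfn5 and Slfn8 were several times lower than in naive cells, Slfn1 was lower in 2 steps from naive to IL-2 to IL-12, Slfn2 was lower with IL-12 alone, and Slfn3 was higher. With IL-2, 3 of 6 tested members fell against naive cells and 2 rose; over all 11147 tested genes 19.9% fell and 25.8% rose. With IL-12, 4 of 6 fell and 1 rose against naive cells, beside 26.7% and 31.2% of all tested genes. Between the cytokines, 4 of 6 were lower in IL-12 than in IL-2 cells and none was higher, beside 11.0% and 9.82% of all tested genes. The count of 4 fell to 1 when IL-2 replicate 2 was left out and to 2 when IL-12 replicate 2, or else replicate 1 of IL-2, was left out, and it includes Slfn5, whose activated signals lay mostly under the filter value. A gene was called where its limma p-value, adjusted by Benjamini and Hochberg over all tested genes, was under 0.05. Both naive comparisons share the naive arrays, so they are not independent. With each array centred on its median, which moved the median of all genes by 0.10 for IL-2 and 0.12 for IL-12 against naive cells, 3282 genes rose and 1562 fell with IL-2 (2873 and 2222 otherwise), and the directions of Slfn1, Slfn3, Slfn5, Slfn8 and Slfn9 against naive cells were as given. The member left untested, Slfn4, had 0 of 6 arrays above the filter value of 6.83, whereas Slfn1, Slfn2, Slfn3, Slfn8 and Slfn9 had all 6 above it. Slfn5 had 3 of 6 above it, both naive arrays and 1 IL-2 array, so it could be tested only because of the groups where it was high.

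**Figure D1:**
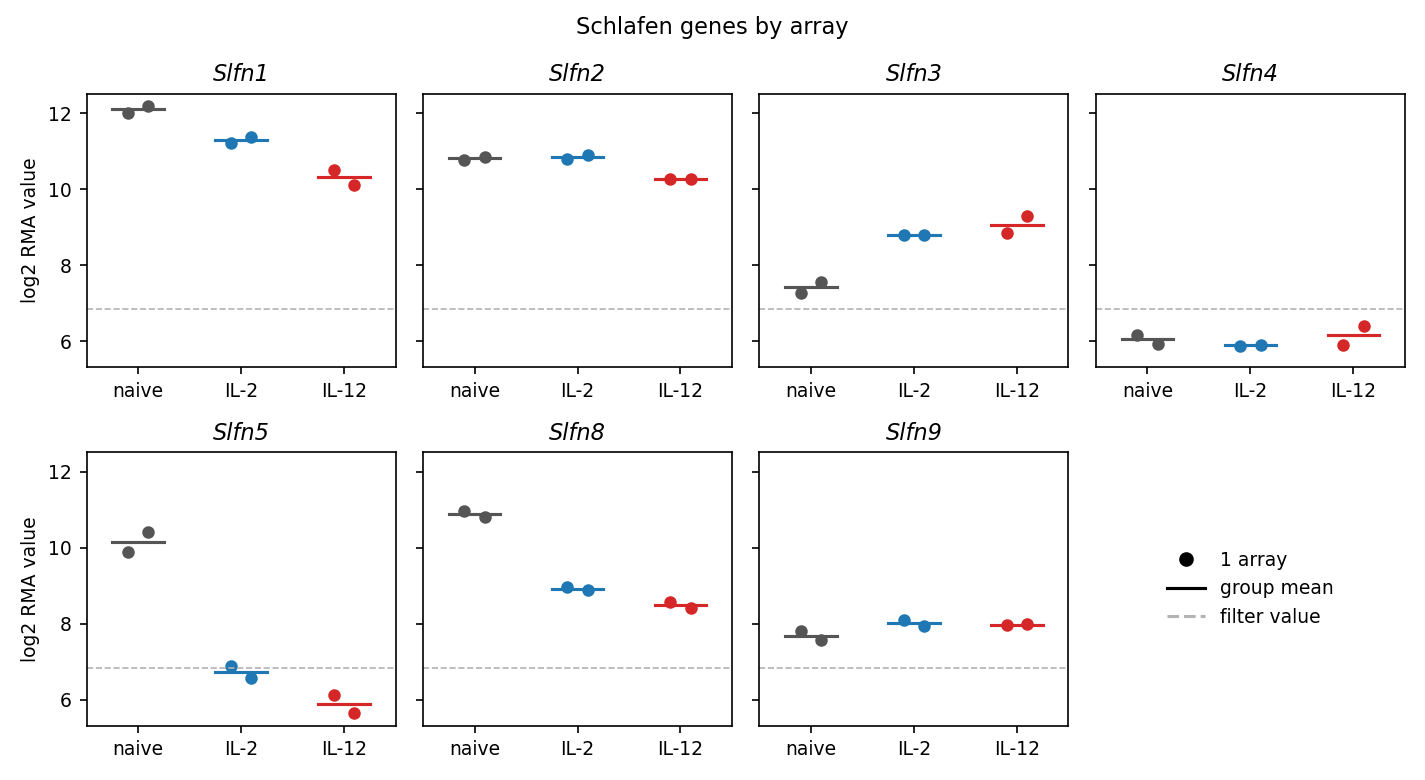
Log2 RMA value of each Schlafen gene (vertical axis) on each array of the naive, IL-2 and IL-12 groups; points are single arrays, bars are group means and the dashed line is the filter value of 6.83. Slfn5 and Slfn8 are highest in naive cells, Slfn3 is lowest there, and all arrays of Slfn4 lie under the line.

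Slfn5, a long nuclear member known as an interferon-induced gene, differed most between groups. It read 9.88 and 10.41 on the naive arrays, 6.87 and 6.56 on the IL-2 arrays and 6.11 and 5.64 on the IL-12 arrays. The 3 groups did not overlap, and each naive array was above every activated array by about 3 or more on the log2 scale. With IL-2 it was 10.8-fold lower than in naive cells (log2 fold change -3.43 ± 0.21, SE of the limma fit, n = 2 arrays per group; adjusted p = 3.2e-06), and with IL-12 it was 19.3-fold lower (-4.27 ± 0.21; adjusted p = 5.63e-07). The means of the activated groups, 6.72 and 5.88, lay under the filter value, where a probe set may no longer follow the amount of RNA. With arrays under the filter value raised to it, Slfn5 was at least 9.80-fold lower with IL-2 and at least 9.93-fold lower with IL-12.

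Between the activated groups the measured values of Slfn5 were 1.79-fold lower with IL-12 (limma adjusted p = 0.023), a difference of signals under the filter value, which shrinks to 1.01-fold with arrays raised to it. Leaving out IL-2 replicate 1 (adjusted p = 0.154) or IL-2 replicate 2 (0.0673) ended the call, as did leaving out IL-12 replicate 2 (0.16). Slfn5os, a noncoding gene on the opposite strand of Slfn5, read between 5.91 and 6.15 on all arrays and was under the filter.

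Slfn8, another long member, followed the same order of groups. It read 10.98 and 10.82 on the naive arrays, 8.95 and 8.89 on the IL-2 arrays and 8.57 and 8.40 on the IL-12 arrays. No group overlapped another, and the gap from the naive arrays to the activated ones was the widest. It was 3.93-fold lower with IL-2 (log2 fold change -1.97 ± 0.11; limma adjusted p = 2.08e-06) and 5.32-fold lower with IL-12 (-2.41 ± 0.11; adjusted p = 4.29e-07). The step from IL-2 to IL-12 was small, 1.35-fold (adjusted p = 0.0263). It was lost when any of the 4 arrays compared was left out (adjusted p of 0.159 without IL-2 replicate 1, 0.131 without its partner, 0.0599 without IL-12 replicate 1 and 0.193 without IL-12 replicate 2) and with quantile normalization (0.0724).

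Slfn9 lies next to Slfn8 and is the third long member. It read 7.80 and 7.56 on the naive arrays, 8.11 and 7.94 on the IL-2 arrays and 7.97 and 7.99 on the IL-12 arrays. Activated arrays were all above both naive arrays, by a small margin, and the activated groups overlapped. Slfn9 rose 1.27-fold with IL-2 (log2 fold change 0.35 ± 0.12; limma adjusted p = 0.0411), a call that ended when naive replicate 2 (0.126), IL-2 replicate 1 (0.25), the other IL-2 array, replicate 2 (0.0767), or either IL-12 array, replicate 1 or 2 (0.0669 each), was left out. It also ended with no filter (0.056), with array weights (0.0608) and in the fit of these groups alone (0.0671). With IL-12 the difference from naive cells was 0.30 (95% interval 0.03 to 0.57; adjusted p = 0.0576), which passed without naive replicate 1 (0.0161). Between the cytokines it was -0.05 (interval -0.32 to 0.22; adjusted p = 0.814).

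Promoter sequence is shown for these 3 long members because Slfn8 and Slfn9 share most of theirs while their signals went different ways. Each line gives the 250 bases before the RefSeq start site (GRCm38.p6), 5′ to 3′ on the gene's strand; the build behind the arrays is not given in the sources used here. Capitals mark matches to the core of the interferon-stimulated response element, the site bound by interferon-activated factors, searched as GAAANNGAAA on both strands (TTTCNNTTTC on the other).
Slfn5, plus strand, chr11:82951852-82952101: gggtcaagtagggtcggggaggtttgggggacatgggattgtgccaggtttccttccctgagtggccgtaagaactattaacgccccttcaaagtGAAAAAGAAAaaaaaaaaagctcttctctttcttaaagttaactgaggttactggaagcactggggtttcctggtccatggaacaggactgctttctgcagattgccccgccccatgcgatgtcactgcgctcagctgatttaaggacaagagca
Slfn8, minus strand, chr11:83020811-83021060: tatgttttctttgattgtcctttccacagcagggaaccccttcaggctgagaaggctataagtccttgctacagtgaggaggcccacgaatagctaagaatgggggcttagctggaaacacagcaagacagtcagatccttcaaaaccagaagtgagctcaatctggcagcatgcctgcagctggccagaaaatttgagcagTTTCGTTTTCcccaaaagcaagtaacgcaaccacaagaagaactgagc
Slfn9, minus strand, chr11:82991831-82992080: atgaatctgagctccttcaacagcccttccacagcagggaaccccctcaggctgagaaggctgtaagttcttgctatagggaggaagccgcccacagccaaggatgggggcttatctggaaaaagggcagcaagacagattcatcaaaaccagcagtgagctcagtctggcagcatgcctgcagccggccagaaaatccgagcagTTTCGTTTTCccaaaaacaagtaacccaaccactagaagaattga
Slfn8 has more than 1 listed start, and the window of the first one listed is shown. The match in Slfn5 begins 155 bases before the start, ahead of a longer run of adenines. In Slfn8 it begins 48 bases and in Slfn9 45 bases before the start, with the same 10 letters, TTTCGTTTTC. Aligned end to end, the Slfn8 and Slfn9 windows were identical at 206 of 258 columns, or 79.8%, against at most 49.1% for any other pair of Schlafen windows. The core occurred in 3 of 8 Schlafen windows, in 8 of 18 windows found for the list of interferon-stimulated genes used further on, and in 2.98% of all 32851 windows of that length. So Slfn8, which fell 3.93-fold with IL-2, and Slfn9, which rose 1.27-fold, hold the same letters. The gamma-activated site, searched as TTCNNNGAA on both strands, had no match in the 8 windows and occurred in 7.02% of all windows. A match is only a run of letters, and no match says only that these letters are not in the window.

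Slfn1, a short member whose forced expression was reported to hold back T cell growth, was lower with each step from naive to IL-2 to IL-12. It read 12.01 and 12.19 on the naive arrays, 11.21 and 11.36 on the IL-2 arrays and 10.52 and 10.12 on the IL-12 arrays. The groups did not overlap and were spaced by more than the gap within any of them. It fell 1.76-fold with IL-2 (log2 fold change -0.82 ± 0.15; limma adjusted p = 0.00213) and 3.45-fold with IL-12 (-1.78 ± 0.15; adjusted p = 1.4e-05) against naive cells. Between the cytokines it was 1.96-fold lower with IL-12 (adjusted p = 0.00263). All 3 calls held under all 16 alternative settings, with adjusted p up to 0.0255, 0.000147 and 0.038 in that order. Since each member had 1 probe set, the other filters and probe set rules could not alter a member's fold change, only its adjusted p.

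Slfn2, the short member tied to T cell quiescence, separated the cytokines and not IL-2 from naive cells. It read 10.78 and 10.84 on the naive arrays, 10.79 and 10.89 on the IL-2 arrays and 10.27 and 10.28 on the IL-12 arrays. Both IL-12 arrays were below all 4 others, and the naive and IL-2 arrays overlapped. With IL-12 it was 1.48-fold lower than with IL-2 (log2 fold change -0.57 ± 0.10; limma adjusted p = 0.00543; 0.0747 and no call once IL-2 replicate 2 is left out) and 1.45-fold lower than in naive cells (adjusted p = 0.0017), a call kept under all 16 alternative settings. Between IL-2 and naive cells the difference was 0.03, with a 95% interval from -0.20 to 0.26 (adjusted p = 0.837), and its sign changed with the setting.

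Slfn3, an intermediate member, was the Schlafen gene with a clear rise. It read 7.27 and 7.56 on the naive arrays, 8.79 and 8.78 on the IL-2 arrays and 8.85 and 9.28 on the IL-12 arrays. Every activated array was more than 1 above every naive array. It rose 2.59-fold with IL-2 (log2 fold change 1.37 ± 0.16; limma adjusted p = 0.000178) and 3.14-fold with IL-12 (1.65 ± 0.16; adjusted p = 3.54e-05), calls kept under all 16 alternative settings. The activated groups did not overlap, but their difference of 0.28 had an interval from -0.08 to 0.64 (adjusted p = 0.248). Slfn4, its intermediate neighbour, known mostly from macrophages, read 6.17 and 5.92 on the naive arrays, 5.88 and 5.90 on the IL-2 arrays and 5.90 and 6.41 on the IL-12 arrays. The IL-12 arrays overlapped both other groups, and both naive arrays lay just above both IL-2 arrays; all were under the filter value. Probe sequences were not used here, so how far probes of one Schlafen gene read a close copy was not tested.

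Upstream of the short and intermediate genes lies a stretch in common, shown because the 4 genes that hold it moved in different ways. The longest run of letters present on the gene's strand in the upstream windows of Slfn1, Slfn2, Slfn3 and Slfn4 is ACTTCCTGG, in capitals with up to 20 bases on each side (GRCm38.p6, 5′ to 3′).
Slfn1, plus strand, chr11:83116726-83116774: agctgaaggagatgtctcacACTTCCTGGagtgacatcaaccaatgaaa
Slfn2, plus strand, chr11:83065037-83065085: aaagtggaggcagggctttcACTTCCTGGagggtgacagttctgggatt
Slfn3, plus strand, chr11:83191268-83191316: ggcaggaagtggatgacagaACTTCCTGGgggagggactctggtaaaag
Slfn4, plus strand, chr11:83175093-83175141: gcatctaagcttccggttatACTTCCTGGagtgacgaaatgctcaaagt
It begins 74, 55, 42 and 73 bases before the start of Slfn1, Slfn2, Slfn3 and Slfn4. It was found by comparing these windows, not taken from a list, and on either strand (CCAGGAAGT on the other) it occurs in 0.7% of all windows. Of the genes that carry it, Slfn1 fell with both cytokines, Slfn2 fell with IL-12, Slfn3 rose with both and Slfn4 was under the filter.

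The plot of fold changes sets the 3 comparisons side by side. Against naive cells, Slfn5, Slfn8 and Slfn1 lay left of zero with both cytokines and Slfn3 lay right of it. In the comparison of IL-12 with IL-2, the 4 called members were lower by 0.44 (Slfn8) to 0.97 (Slfn1) on the log2 scale. The medians of the 6 tested members were -0.39, -1.16 and -0.50 for IL-2 against naive, IL-12 against naive and IL-12 against IL-2, beside 0.01, 0.04 and 0.02 over all tested genes. The 4 called members and the median of -0.50 rest in part on Slfn5, whose activated signals lay mostly under the filter value. With arrays raised to that value its difference between the cytokines was -0.02.

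**Figure D2:**
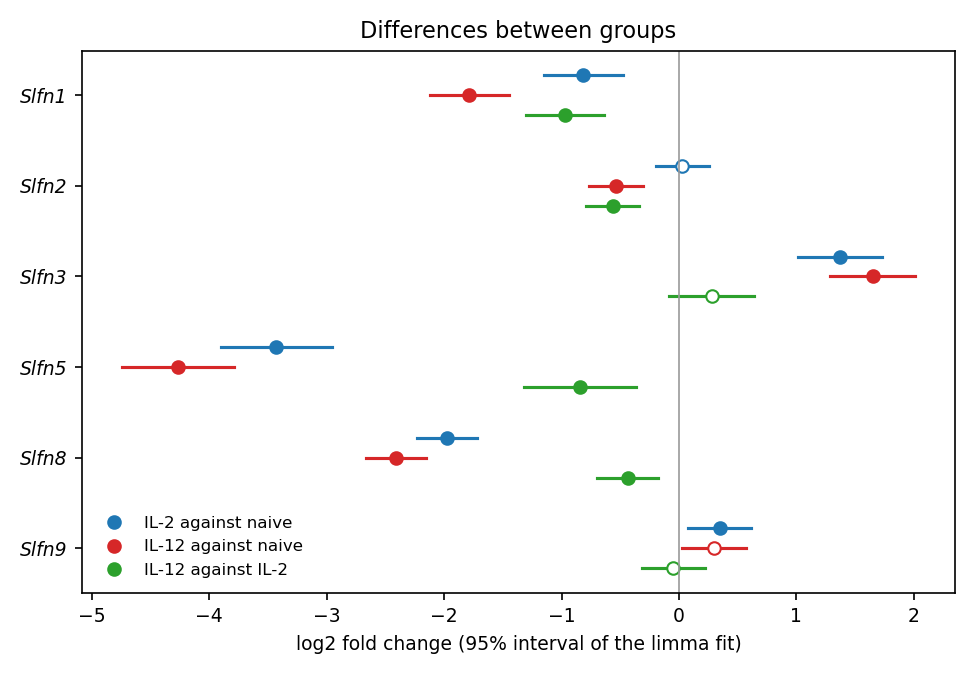
Log2 fold change (horizontal axis) of the 6 tested Schlafen genes in each comparison, with bars for the 95% interval of the limma fit; filled points passed an adjusted p of 0.05 and open points did not. Slfn5 lies furthest left, at -3.43 and -4.27 against naive cells, and Slfn3 furthest right, at 1.37 and 1.65.

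Of the other genes with a Schlafen name, 2 were tested. Slfn10-ps, the transcribed relative between Slfn8 and Slfn2, read 9.15 and 8.63 on the naive arrays, 8.49 and 8.41 on the IL-2 arrays and 8.28 and 8.13 on the IL-12 arrays. It fell 1.61-fold with IL-12 against naive cells (limma adjusted p = 0.006), and with IL-2 its difference of -0.44 did not pass (adjusted p = 0.0541). Slfnl1, a Schlafen-like gene on another chromosome, stayed between 6.76 and 7.01 on all arrays and passed in no comparison. Expression of Slfn14 was not analysed here; only its promoter window was counted.

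The members sit together on chromosome 11, in the order Slfn5, Slfn9, Slfn8, Slfn2, Slfn1, Slfn4 and Slfn3. Slfn9, which rose slightly with IL-2, lies between Slfn5 and Slfn8, which fell at least 9.80-fold and 3.93-fold with IL-2. That rise lost its call in 8 of 15 alternative settings. With IL-12 Slfn9 was not called, and the only called rise, that of Slfn3, lies at the end of this order. Of the 5 protein-coding genes on each side, 6 of 10 were tested. With IL-2, 1 of these rose and 2 fell against naive cells; with IL-12, 1 rose and 1 fell; between the cytokines 1 rose and 2 fell. Over all tested genes 25.8% rose and 19.9% fell, 31.2% rose and 26.7% fell, and 9.82% rose and 11.0% fell in these comparisons. The largest change among them was that of 1700020L24Rik, 0.97 higher with IL-2 than in naive cells (limma adjusted p = 0.00043). Rffl, the first gene of this stretch, was lower by 0.96 with IL-12 than in naive cells (adjusted p = 0.000165). The adaptor gene Ap2b1 and the repair gene Rad51d passed in no comparison, with differences between -0.07 and 0.15.

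**Figure D3:**
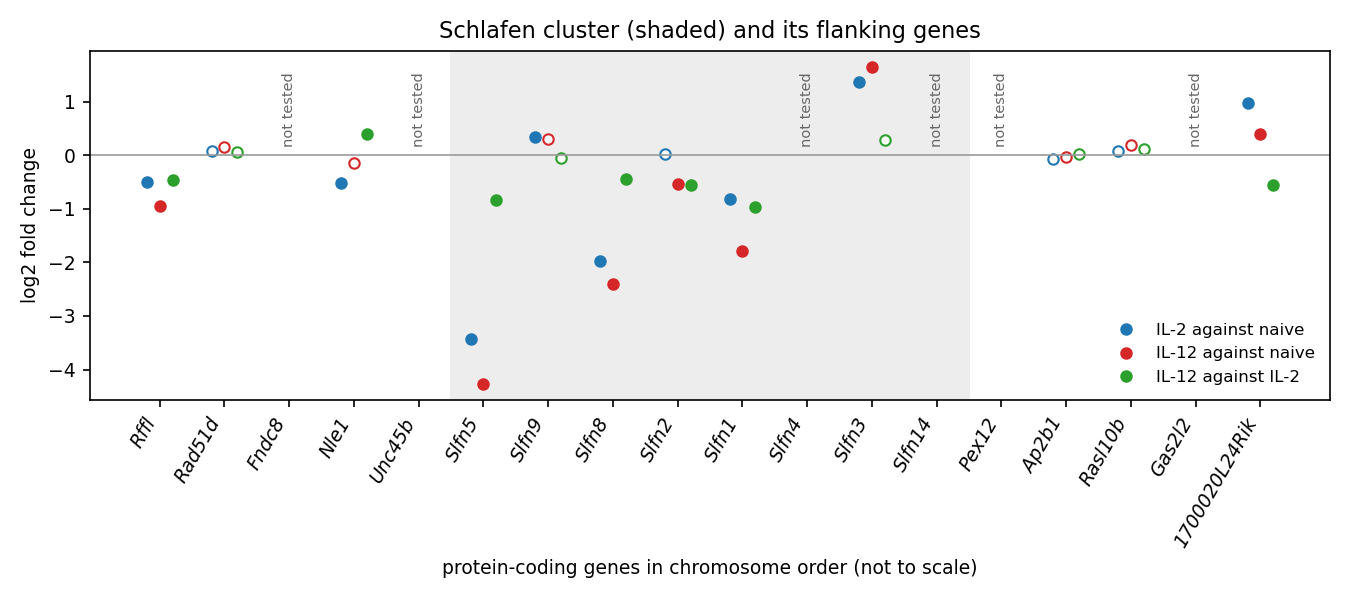
Log2 fold change (vertical axis) of the protein-coding genes of the Schlafen cluster (shaded) and of 5 genes on each side, placed in chromosome order and not to scale; filled points passed an adjusted p of 0.05, open points did not. Slfn5 and Slfn8 lie far below zero against naive cells, Slfn9 between them lies just above it, and the tested flanking genes lie between -0.96 and 0.97.

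Other genes that hold T cells at rest were read from a list of 27 quiescence regulators, of which 25 were tested. With IL-2, 12 fell and 2 rose against naive cells (median log2 fold change -0.30), beside 19.9% and 25.8% of all tested genes (median 0.01). Among the falls was Runx1, a transcription factor (-1.05 ± 0.11), Peli1, a ubiquitin ligase that dampens T cell activation (-0.88 ± 0.12), and Ets1 (-0.58 ± 0.11; limma adjusted p from 8.07e-05 to 0.00217 for the 3 genes). Cdkn2c, an inhibitor of cyclin-dependent kinases, rose by 2.52 ± 0.21. Without IL-2 replicate 1 the count was 5 fallen and 1 risen.

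With IL-12, 17 of these regulators fell and 2 rose against naive cells (median -0.66), beside 26.7% and 31.2% of all tested genes (median 0.04; 1 regulator risen without naive replicate 1 or IL-12 replicate 1). Peli1 fell by 1.56, Btg2, an antiproliferative gene, by 1.56, the IL-7 receptor gene Il7r by 1.38 and Mxd4, an antagonist of Myc, by 1.86 on the log2 scale. Between the cytokines 9 were lower and 1 higher in IL-12 cells (median -0.37), beside 11.0% and 9.82% of all tested genes (median 0.02). Without IL-2 replicate 2, 5 were lower. Mxd4 (-2.24 ± 0.11) and Foxp1, a transcription factor of naive T cells (-0.68 ± 0.10; limma adjusted p = 0.00237), were among the lower ones. Runx1, the higher one at 0.44, was not called without any 1 of the 4 activated arrays, and 2 were higher without naive replicate 1 or naive replicate 2. Slfn2 and Cdkn1b, an inhibitor of the cell cycle, showed like steps: Cdkn1b had means of 11.35, 11.42 and 10.69 in naive, IL-2 and IL-12 cells; it was chosen after its values were seen.

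Proliferation genes stood opposite in both comparisons with naive cells: 21 of 21 tested rose with each cytokine, with medians of 4.12 and 4.27, among them Plk1, a mitotic kinase, by 4.12 ± 0.10 with IL-2. Bub1, Birc5, Tpx2 and Cdc6 were above the filter value on activated arrays alone and so were tested only because they were high there. With arrays raised to the filter value their rises lay between 3.175-fold (Cdc6 with IL-2) and 16.6-fold (Birc5 with IL-12). Over all tested genes 25.8% rose with IL-2 and 31.2% with IL-12, and 9.82% were higher with IL-12 than with IL-2. Between the cytokines 6 rose, led by the cyclin gene Ccne1 (0.64 ± 0.11) and the replication helicase genes Mcm3 and Mcm2 (0.58 and 0.70; limma adjusted p from 0.00441 to 0.00819). That count was 2 without IL-2 replicate 1, 0 without IL-2 replicate 2, 1 without IL-12 replicate 2 and 10 without naive replicate 1 or naive replicate 2.

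Interferon-stimulated genes fell against naive cells alongside Slfn5 and Slfn8. Of 24 tested, 19 fell with IL-2 and 21 with IL-12 (medians -0.82 and -1.38), and none rose. Over all tested genes 19.9% and 26.7% fell and 25.8% and 31.2% rose in these comparisons (medians 0.01 and 0.04). Ifit3 and Ifit1, which encode antiviral proteins that bind foreign RNA, had log2 fold changes of -3.41 and -3.14 with IL-2 and of -3.64 and -3.81 with IL-12. Oas2, which makes the messenger that activates RNase L, fell by 2.98 with IL-2, and Rtp4 fell by 4.07 and Xaf1 by 2.25 with IL-12. The lower group means of Ifit1, Ifit3, Rtp4 and Oas2 lay under the filter value (with IL-12, and for Oas2 with both cytokines), and 3 of the 24 genes were above it on the naive arrays alone.

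Between the cytokines 9 of these genes were lower and 2 higher in IL-12 cells (median -0.23), beside 11.0% and 9.82% of all tested genes (median 0.02). Rtp4 was lower by 1.96, Xaf1 by 1.48 and Irf7, a transcription factor of the interferon response, by 1.30 on the log2 scale. The IL-12 arrays of Rtp4 and of Ifit1, also counted among the 9, lay under the filter value. With arrays raised to it, Rtp4 was lower by 0.93 and Ifit1 by 0.25. Usp18, which encodes an inhibitor of interferon receptor signalling, went the other way, by 4.11 ± 0.24 (limma adjusted p = 2.19e-05; at least 12.1-fold with the IL-2 arrays, which lay under the filter value, raised to it), as did Mx1 by 0.47. The count of higher genes was 1 when any 1 of the 4 activated arrays was left out.

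Of 13 tested receptors, kinases and factors of interferon signalling, 6 fell and 2 rose with IL-2, 9 fell and 1 rose with IL-12, and 5 were lower and 2 higher in IL-12 than in IL-2 cells (medians -0.35, -0.42 and -0.27). Over all tested genes 19.9% fell and 25.8% rose with IL-2, and 26.7% fell and 31.2% rose with IL-12. Between the cytokines 11.0% of all tested genes were lower and 9.82% higher in IL-12 cells. Ifngr2, a chain of the interferon gamma receptor, fell by 3.37 with IL-2 and by 4.24 with IL-12 on the log2 scale, its IL-12 mean lying under the filter value. Ifnar2, a chain of the type I interferon receptor, rose by 0.72 with IL-2 and was lower by 1.10 with IL-12 than with IL-2. Ifnar1, the other chain, was lower by 0.89 with IL-12 than with IL-2 (limma adjusted p = 0.000499). Without IL-2 replicate 1, 3 fell with IL-2 against naive cells. Between the cytokines 2 were lower without IL-2 replicate 2 and 3 without IL-12 replicate 1 or 2, and 0 were higher without any 1 of the activated arrays. The 1 rise with IL-12 against naive cells, that of Ifngr1, was lost when any array but naive replicate 2 was left out.

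**Figure D4:**
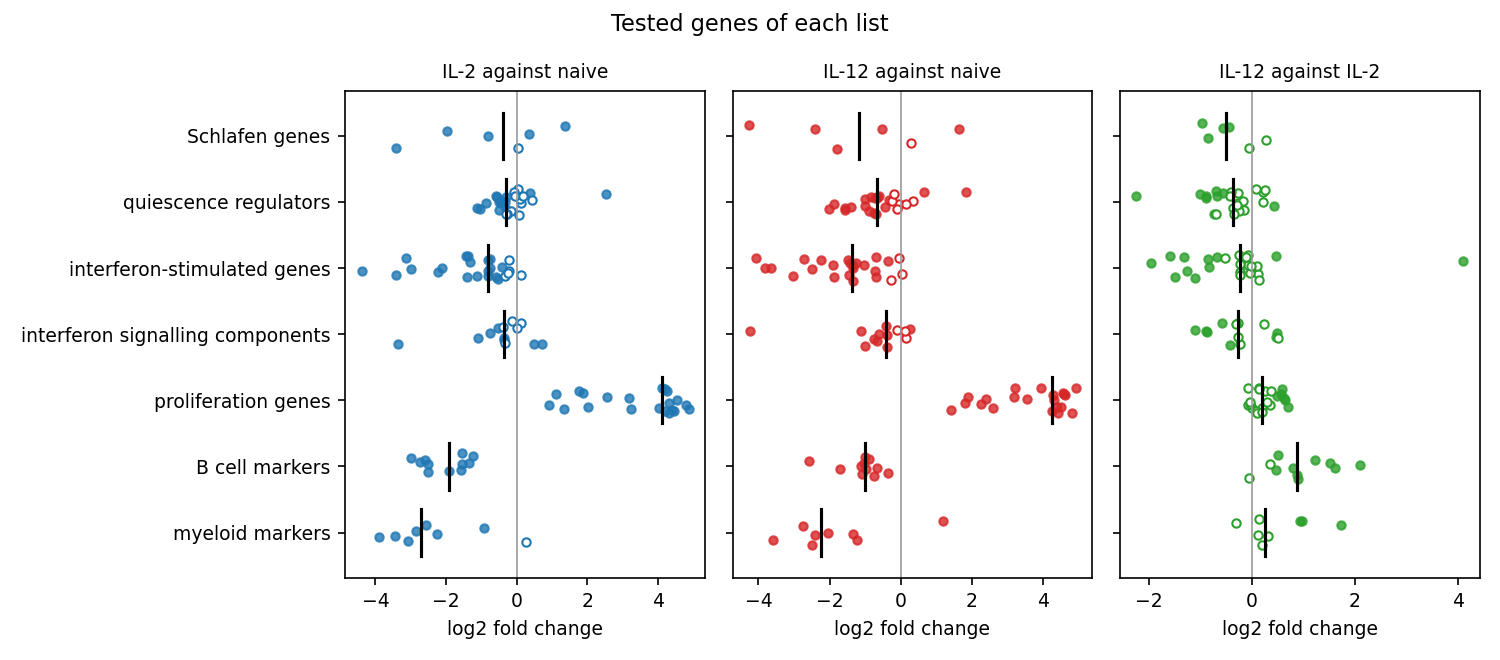
Log2 fold change (horizontal axis) of each tested gene in the Schlafen set and in lists of quiescence regulators, interferon-stimulated genes, interferon signalling components, proliferation genes, B cell markers and myeloid markers, for the 3 comparisons; filled points passed an adjusted p of 0.05, open points did not, and bars are medians. Against naive cells the proliferation genes lie at 0.92 or above and the B cell markers at -0.36 or below.

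Markers of other cells moved between these groups too. All 11 tested B cell markers fell with both cytokines against naive cells, and 9 of 11 were higher in IL-12 than in IL-2 cells. Over all tested genes 19.9% fell with IL-2 and 26.7% with IL-12 against naive cells. Between the cytokines 9.82% of all tested genes were higher in IL-12 cells. Of the 11 markers, 3 were above the filter value on the naive arrays alone and so were tested only because they were high there. Ebf1 and Blk, counted among the 9, differed 1-fold between the cytokines with arrays raised to the filter value. The summed signal of 11 B cell markers on the unlogged scale was 5707 to 6034 on naive, 1363 to 1416 on IL-2 and 2819 to 2850 on IL-12 arrays. Of 8 tested myeloid markers 7 fell with each cytokine, and Itgam rose with IL-12, but 5 of the 8 were above the filter value on the naive arrays alone and so were tested only because they were high there. Itgam in turn was above it on the IL-12 arrays alone and was tested only because it was high there. With arrays raised to the filter value it was 1.61-fold higher with IL-12 than in naive cells. The 5 untested myeloid markers differed from naive cells by between -0.36 and 0.10. The summed signal of 13 myeloid markers was 3165 to 3572 on naive, 784 to 829 on IL-2 and 1088 to 1127 on IL-12 arrays. The part of other cells in the higher naive signals of Slfn5, Slfn8 and Slfn1 was not tested. Between the cytokines 3 of 8 myeloid markers, Itgam, Mpeg1 and Cybb, passed as higher in IL-12 cells and none as lower. With arrays raised to the filter value Mpeg1 differed 1-fold between the cytokines, Itgam 1.61-fold and Cybb 1.85-fold.

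Of 6 tested MHC class II presentation genes, 5 fell with each cytokine and 5 were higher in IL-12 than in IL-2 cells. Ciita, counted in both, was above the filter value on the naive arrays alone and so was tested only because it was high there. With arrays raised to the filter value it differed 1-fold between the cytokines. Over all tested genes 19.9% fell and 25.8% rose with IL-2, and 26.7% fell and 31.2% rose with IL-12. Between the cytokines 11.0% of all tested genes were lower and 9.82% higher in IL-12 cells. The summed signal of 9 MHC class II presentation genes was 9495 to 9740 on naive, 2254 to 2297 on IL-2 and 4286 to 4821 on IL-12 arrays. Of the defining markers of other cells, the natural killer receptor gene Ncr1 had group means of 5.92, 5.43 and 5.82 and Cd4 had 6.59, 6.25 and 6.43 in naive, IL-2 and IL-12 cells, all under the filter value. The neutrophil genes S100a8 and S100a9 had group means between 4.72 and 6.09. RMA gives no zero, so none of these is listed at 0. Of the 7 natural killer markers only Eomes was tested, and it fell in each comparison, with log2 fold changes of -0.86 (IL-2 against naive), -2.21 (IL-12 against naive) and -1.35 (IL-12 against IL-2). The 6 untested natural killer markers, under the filter value on all arrays, differed from naive cells by between -1.27 and 0.28. Of 4 tested CD4 and regulatory T cell markers, Ctla4 and Zbtb7b rose with both cytokines and Ctla4 was lower with IL-12 than with IL-2, whereas Foxp3 passed in no comparison. Which cells gave the signals of Eomes, Ctla4 and Zbtb7b, the CD8 T cells themselves or others, was not tested. Markers of CD8 T cells themselves were lower in IL-12 cells as well: of 11 tested, 5 were lower with IL-12 than with IL-2 and 7 were lower than in naive cells, among them Cd8b1 by 0.44 and 0.63 on the log2 scale, and none was higher. Their summed signal was 51900 to 55880 on naive, 50510 to 51700 on IL-2 and 41020 to 41690 on IL-12 arrays. Their part in the lower Slfn1, Slfn2, Slfn5 and Slfn8 of IL-12 cells was not tested. In bulk samples fewer cells of a type and less RNA per cell cannot be told apart.

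For each tested member whose highest and lowest array differed by at least 1, the 4 tested genes nearest to it were taken by the distance between log2 values over the 6 arrays, each gene centred on its own mean. For Slfn1 they were Rnf167, Bcl2, Ddx58 and Sntb1 (distances 0.124 to 0.281). For Slfn3 they were Ube2t, Ppih, Psmd6 and Gins3 (0.145 to 0.235). For Slfn5 they were Ifit1, Slc16a5, Ifngr2 and Ifit3, at larger distances (0.526 to 0.822), and for Slfn8 they were Gbp9, H2-T24, Tmie and Arhgap5 (0.215 to 0.323). Within the family, Slfn1 and Slfn8 were nearer to each other (1.20) than Slfn5 was to Slfn8 (2.03), since Slfn5 moved further than either. The pair furthest apart was Slfn3 and Slfn5, at 6.33. The 6 arrays fall into 3 groups, so these distances describe the group pattern and give no test.

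**Figure D5:**
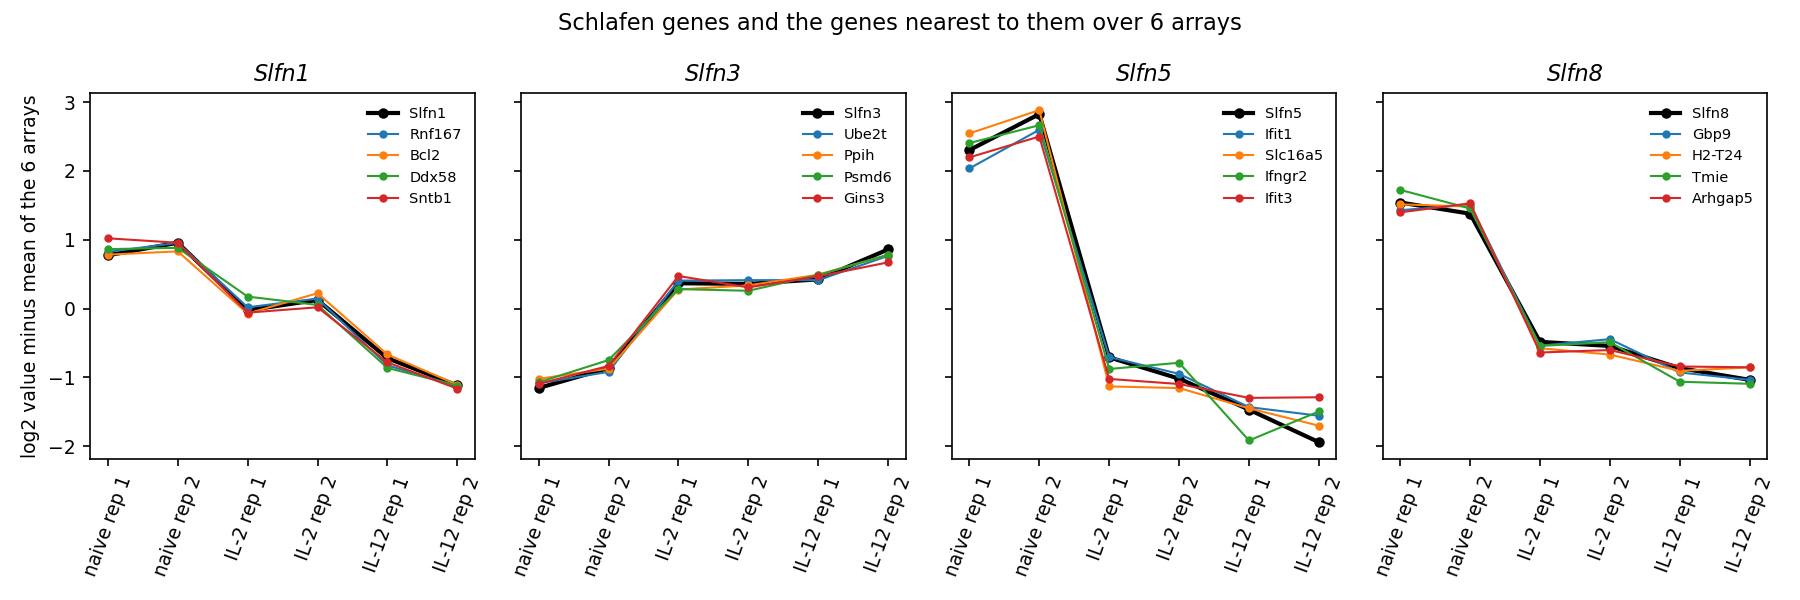
Log2 value minus the gene's mean over the 6 arrays (vertical axis) on each array (horizontal axis) for Slfn1, Slfn3, Slfn5 and Slfn8 (black) and the 4 genes nearest to each (colours). The lines of Slfn1, Slfn5 and Slfn8 step down from naive to IL-12 arrays, that of Slfn3 steps up, and Slfn5 spans 4.77 from its highest to its lowest array.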

How the data were processed

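Total RNA of 6 samples was hybridised to Affymetrix arrays, 1 per sample. The deposited values, 1 for each of 35556 probe sets, are on the log2 scale and come from RMA, as the submitters' processing notes name it; its version is not given in the sources used here. RMA aligns the arrays' distributions and would hide a shift shared by most genes. Gene symbols came from the platform's annotation table and were updated by gene identifier to GRCm38.p6 symbols: 21789 carried 1 symbol (21698 matched), 1621 carried several, and 12146 are unnamed here. Each of 19938 genes was read from its probe set of highest mean. Genes with at least 2 of 6 arrays above the 50th percentile of all values (6.83), 11147 in all, were fitted across the 6 arrays with limma 3.58.1 in R 4.3.3 (lmFit, eBayes; 3 residual and 5.62 prior degrees of freedom), with two-sided p-values adjusted by Benjamini-Hochberg. The number of arrays limits the precision.

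The members and the gene lists were chosen with earlier results of these data known. Named genes are the members, their chromosome neighbours and nearest profiles, and up to 4 genes of smallest adjusted p from a list. The fit was tested on simulated data. Lower bounds of fold changes, added after the data were seen, set arrays under the filter value to that value before averaging. Promoter windows are RefSeq's, GRCm38.p6. Alternatives were other filters, probe set rules, normalizations, variance models, array weights, the compared groups alone, a replicate block and leaving out each array.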

Additional observations from a re-analysis of the deposited data

How the results depend on the processing

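Of the alternative fold changes of single members, 260 kept their direction and side of the threshold, 17 lost their call, 3 gained one and 5 turned sign. Among the 260 are fits with other filters and probe set rules, which could not alter a fold change of a member with 1 probe set. The turned signs concern differences that never passed: Slfn2 between IL-2 and naive cells was -0.0504 with quantile normalization, -0.0024 without naive replicate 1 and between -0.0191 and 0.0767 over all arrays left out, and Slfn9 between IL-12 and IL-2 cells was 0.0290 with quantile normalization and between -0.129 and 0.0338 over the arrays left out, the highest without IL-2 replicate 1. The cause was not tested. Members rising with IL-2 against naive cells numbered 1 in place of 2 with no filter (more genes tested; Slfn9 adjusted p = 0.056), with a filter at the 75th percentile (fewer genes tested, Slfn9 not among them), with array weights (0.0608) and with only the compared groups (0.0671), and 1 to 2 when an array was left out. Members rising with IL-12 numbered 2 in place of 1 with quantile normalization and with median centring, where Slfn9 passed (adjusted p = 0.0131 and 0.0153), and 1 to 2 when an array was left out. Members lower in IL-12 than in IL-2 cells numbered 1 to 4 when an array was left out.

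Over all genes between the cytokines, 1986 fell and 1853 rose with array weights, 1695 rose in the fit of those groups alone, and 386 to 1852 fell and 339 to 1704 rose when an array was left out. A filter at the 75th percentile tested fewer genes and gave 1378 falls with IL-2 and 1890 with IL-12 against naive cells; falls with IL-2 were 1355 to 2183 when an array was left out. Interferon signalling genes higher in IL-12 than in IL-2 cells were 1 with no filter, with the mean or the most variable probe set, with quantile normalization and with median centring; those rising with IL-12 against naive cells were 0 with no filter, quantile normalization, array weights, the compared groups alone and the replicate block. Interferon-stimulated genes higher in IL-12 than in IL-2 cells were 1 with the filter at the 75th percentile. Between the cytokines 10 proliferation genes rose in the fit of the compared groups, 16 quiescence regulators fell with array weights, and 2 rose with no filter, array weights or the compared groups. Quiescence regulators that rose against naive cells were 1 with IL-12 at the 75th percentile filter and 1 with IL-2 under quantile normalization. Leaving out an array gave, for interferon signalling genes, 2 to 6 lower and 0 to 3 higher between the cytokines, 0 to 1 risen with IL-12 and 3 to 6 fallen with IL-2; for interferon-stimulated genes 1 to 2 higher and for proliferation genes 0 to 10 higher between the cytokines; and for quiescence regulators 5 to 13 lower and 0 to 2 higher between the cytokines, 1 to 3 risen with IL-12, and 5 to 11 fallen and 1 to 3 risen with IL-2. The causes were not tested.

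The titles number the arrays of each group 1 and 2. Arrays with the same number deviated together only weakly across genes (correlations of 0.02, -0.02 and 0.15 between pairs of groups). With 2 arrays per group these correlations cannot settle whether arrays of the same number shared an animal, culture or batch. A replicate block as a term in the fit changed no member's call, and between the cytokines 1135 genes rose and 1279 fell with it.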
